A study of Homo sapiens with 6 samples.

Results

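GPHN codes for gephyrin, and the other genes described here code for subunits of the GABA-A receptor that gephyrin anchors. The 7 genes are GPHN, GABRB1, GABRB2, GABRA2, GABRA4, GABRA5 and GABRG3, out of 20033 protein-coding genes in the GRCh38 gene table. GPHN was chosen by its fall in matrix-attached regions from the control hairpin to the HNRNPU hairpin, with the count in untreated cells above the knockdown count, so its counts are given as a description and no test was made of them. The receptor genes were set beside it for the function of their products. A region was assigned to a gene when it overlapped the gene body of the table by at least 1 base. Together the genes held 40 of 40106 regions in hPSC, 42 of 39368 in shLUC and 31 of 36277 in shHNRNPU.

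The regions come from MAR-seq in H1 cells, an established line of human pluripotent stem cells. MAR-seq sequences the DNA that stays with the nuclear matrix after nuclei have been cut with restriction enzymes. The 3 groups of 2 samples each were untreated H1 cells (hPSC), H1 cells with an shRNA against LUC, the control hairpin (shLUC), and H1 cells with an shRNA against HNRNPU (shHNRNPU), a nuclear RNA-binding protein. All cells were grown in the same feeder-free medium, and the labels give neither the number of hairpins nor the time after their delivery. Each group has 1 list of regions of 400 bases, with no height, depth or value per sample, so no comparison below has a replicate error and no p-value was computed. The intervals are exact 95% Poisson or Clopper-Pearson intervals that cover counting error only. Neither the knockdown itself nor the expression of the genes can be read from these lists.

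GABA-A receptors are pentameric chloride channels that carry most of the fast inhibition in the brain. Alpha and beta subunits form the sites for GABA, and a gamma subunit together with an alpha subunit forms the site for benzodiazepines. Gephyrin is a scaffold under the inhibitory synapse that holds GABA-A and glycine receptors in place. It also carries out the last steps of molybdenum cofactor synthesis. Most receptor genes lie in clusters, of which those on chromosomes 4, 5 and 15 hold the 6 receptor genes here.

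The start of a gene can be shown beside the regions that touch it. The RefSeq promoter table (GRCh38.p14) holds 300 bases around gene starts, with 250 bases before the start and 50 after it, and it matched 6 of the 7 genes (not GABRA5). Regions touched the windows of GPHN and GABRA4. Among the other genes that start inside the GPHN body, the windows of PLEK2 and VTI1B are shown because a region lay on PLEK2 in all 3 lists, while VTI1B had its region in both control lists and none in shHNRNPU. Sequences are written 5′ to 3′ on the strand of the gene, and capitals mark the bases covered by a region of any list.
GPHN, plus strand, chr14:66507897-66508196: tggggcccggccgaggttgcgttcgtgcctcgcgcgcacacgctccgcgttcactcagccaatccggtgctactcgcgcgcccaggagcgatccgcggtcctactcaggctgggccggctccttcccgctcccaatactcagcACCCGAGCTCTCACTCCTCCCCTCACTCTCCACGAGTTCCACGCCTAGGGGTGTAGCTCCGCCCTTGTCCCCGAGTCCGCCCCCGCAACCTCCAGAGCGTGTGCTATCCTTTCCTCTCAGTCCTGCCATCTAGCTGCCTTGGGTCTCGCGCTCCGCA
GABRA4, minus strand, chr4:46993532-46993831: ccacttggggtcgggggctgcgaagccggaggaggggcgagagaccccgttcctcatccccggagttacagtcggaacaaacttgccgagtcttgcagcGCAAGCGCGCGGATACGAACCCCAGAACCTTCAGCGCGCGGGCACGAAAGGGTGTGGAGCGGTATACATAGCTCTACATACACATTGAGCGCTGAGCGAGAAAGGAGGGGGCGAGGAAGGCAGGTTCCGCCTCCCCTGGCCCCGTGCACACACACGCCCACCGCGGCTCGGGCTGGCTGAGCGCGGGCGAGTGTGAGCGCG
PLEK2, minus strand, chr14:67412116-67412415: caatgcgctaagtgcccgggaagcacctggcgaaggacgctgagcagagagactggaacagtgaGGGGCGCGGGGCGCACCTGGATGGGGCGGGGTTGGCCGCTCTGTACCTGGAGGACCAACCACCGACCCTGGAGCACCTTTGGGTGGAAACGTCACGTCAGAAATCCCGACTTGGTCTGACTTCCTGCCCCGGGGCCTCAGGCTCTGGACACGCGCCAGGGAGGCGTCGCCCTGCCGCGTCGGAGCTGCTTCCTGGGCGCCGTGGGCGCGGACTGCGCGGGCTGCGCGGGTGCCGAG
VTI1B, minus strand, chr14:67674583-67674882: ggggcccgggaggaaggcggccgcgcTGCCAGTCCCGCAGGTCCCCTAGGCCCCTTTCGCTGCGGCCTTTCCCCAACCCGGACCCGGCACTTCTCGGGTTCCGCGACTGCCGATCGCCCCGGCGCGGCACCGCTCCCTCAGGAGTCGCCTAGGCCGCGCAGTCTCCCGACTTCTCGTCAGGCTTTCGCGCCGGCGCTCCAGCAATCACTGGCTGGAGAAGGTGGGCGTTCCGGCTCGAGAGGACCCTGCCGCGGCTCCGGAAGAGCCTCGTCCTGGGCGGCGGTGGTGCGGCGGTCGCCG

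The GPHN window was covered over 157 bases by an hPSC region, and the nearest region of each hairpin list lay 115172 bases away. The GABRA4 window was covered over 201 bases in shLUC and 98 bases in hPSC, and the nearest shHNRNPU region lay 82689 bases away. The control lists thus held a region at the GABRA4 start and the knockdown list held none. PLEK2, which codes for a pleckstrin-like protein, had 236 covered bases in each hairpin list and 73 in hPSC. The start of VTI1B, a SNARE gene of vesicle transport, had 211 covered bases in shLUC and 274 in hPSC. The windows shown were GC-rich, with an AT content of 33.0% for GPHN, 34.0% for GABRA4, 30.7% for PLEK2 and 26.3% for VTI1B. The median was 41.3% over 34943 promoter windows. Other touched windows inside the GPHN body had 28.3% (TMEM229B), 37.7% (ATP6V1D) and 48.3% (EIF2S1), the last above that median. The windows of GABRB2 (AT content 61.0%) and GABRB1 (51.3%) were touched by no region, and neither were those of GABRG3 (28.3%) and GABRA2 (28.7 to 48.3% over 3 windows). A low AT content was therefore found with a region on the window and without one. The nearest region of each hairpin list lay 76 bases from the GABRG3 window and 171 bases from the 28.7% window of GABRA2. The nearest shLUC region lay 37584 bases from the GABRB1 window and 380081 bases from that of GABRB2. For hPSC these distances were 2577 (GABRG3), 14292 (GABRA2), 734 (GABRB1) and 1735 bases (GABRB2). A link between AT content and the nearness of a region was not tested.

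Sites of the enzymes named in the labels were counted in the same windows as a description. All motifs searched read the same on both strands. The GPHN window held 3 sites for MspI (CCGG), 3 for HaeIII (GGCC) and 3 for AluI (AGCT), and none for RsaI (GTAC), BamHI (GGATCC) or PvuII (CAGCTG, which contains the AluI site). The GABRA4 window held 2 MspI sites, 1 HaeIII site and 1 AluI site. Of all promoter windows, 63.1% held an MspI site, 78.9% a HaeIII site and 74.1% an AluI site, so such sites are common near gene starts.

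GPHN (gene ID 10243, plus strand) spans chr14:66508147-67735355 in the gene table, or 1227 kb. It held 23 regions in hPSC (interval 14.6 to 34.5), 21 in shLUC (13.0 to 32.1) and 14 in shHNRNPU (7.65 to 23.5). Per Mb of gene body these were 18.7, 17.1 and 11.4 regions. The knockdown count was the lowest of the lists, and its interval overlapped those of both controls. The log2 ratio of shHNRNPU to shLUC was -0.58 (interval -1.67 to 0.46), and that of hPSC to shLUC was 0.13 (-0.79 to 1.06), so both intervals held 0. Of 197 genes with at least 10 shLUC regions, 15 had a lower ratio of shHNRNPU to shLUC than the GPHN ratio of 0.667, and the median ratio was 0.867. A ratio as low as that of GPHN or lower was found in 12.2% of these genes, the background for a value that the choice of GPHN itself used. The order by which it was picked holds only genes with more regions in hPSC than in shHNRNPU. In it, CACNA2D3 fell by 9 regions (from 14 to 5), GPHN by 7 and TENM3 by 7 (from 24 to 17). The next genes in that order, such as ADGRL3 (from 15 to 10), fell by 5. Without the hPSC condition, MYT1L fell by 8 (from 17 to 9, with 9 in hPSC), PRDM16 by 7 (from 13 to 6, with 6 in hPSC), and CDH4, SDK1 and TBCD by 6 each.

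The table body of GPHN is not GPHN sequence alone. Its first 681.3 kb (chr14:66508147-67189439) overlap no other protein-coding gene, whereas the remaining 545.9 kb (chr14:67189440-67735355) run over 13 other protein-coding genes, from GARIN2 to ZFYVE26. The gene table does not say which transcript model reaches that far, and since all regions are listed on the plus strand, a region in the shared stretch cannot be given to 1 gene. In the stretch of GPHN alone there were 8 regions in hPSC, 7 in shLUC and 4 in shHNRNPU. In the stretch shared with other genes there were 15, 14 and 10, of which 13, 12 and 9 lay in the body of another protein-coding gene. Of the 7 regions by which shHNRNPU fell short of shLUC, 3 were therefore in GPHN alone and 4 in the shared stretch.

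The stretches also differed in density. GPHN alone had 11.7 regions per Mb in hPSC, 10.3 in shLUC and 5.87 in shHNRNPU, and the shared stretch had 27.5, 25.6 and 18.3. Among 3356 protein-coding genes of at least 100 kb, the median density was 14.7 per Mb in hPSC, 15.4 in shLUC and 14.1 in shHNRNPU. With the whole table body, GPHN lay above this median in both control lists and below it in shHNRNPU. With GPHN alone it lay below the median in all 3 lists, at rank 2026 from the top in hPSC, 2223 in shLUC and 2864 in shHNRNPU. The whole body ranked 1194, 1459 and 2009. Of 125 genes with exactly 7 shLUC regions, 21 had at most 4 shHNRNPU regions (16.8%), and the median of these 125 genes in shHNRNPU was 6.

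**Figure D1:**
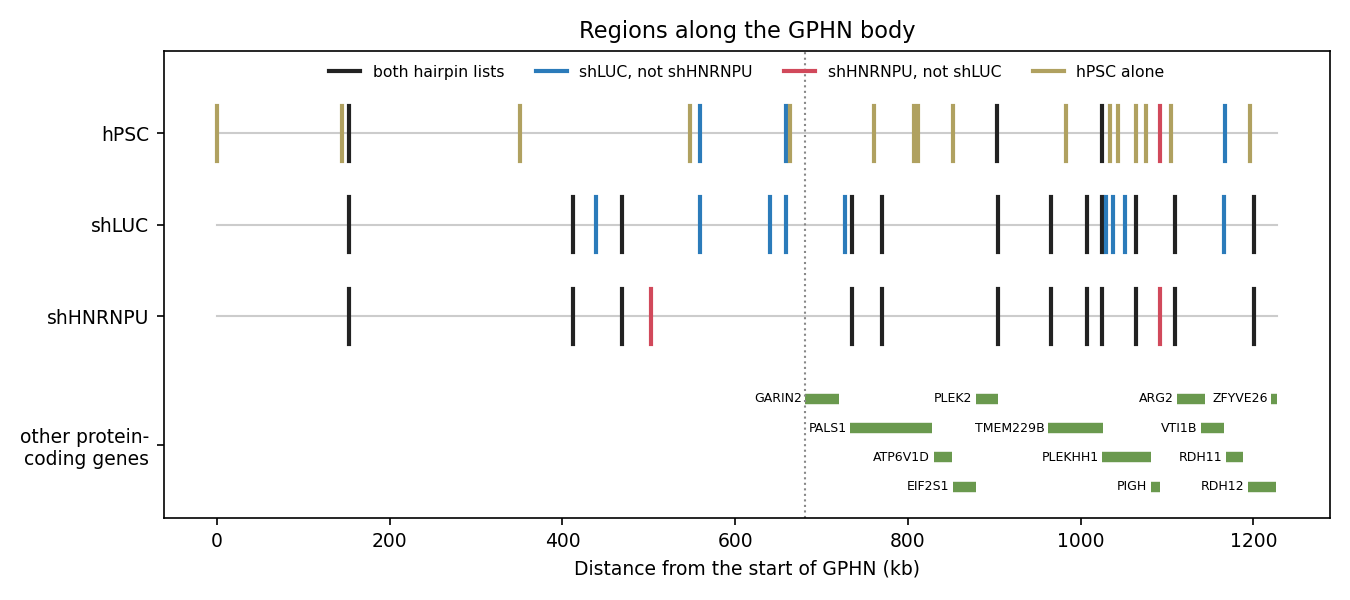
Each vertical line is 1 region along the GPHN body, placed by the distance of its centre from the GPHN start in kb, in 1 row per list. Colours give whether the region overlaps a region of both hairpin lists, of shLUC without shHNRNPU, of shHNRNPU without shLUC or of neither, green bars are other protein-coding genes and the dotted line marks 681.3 kb, where the first of them begins. The shLUC regions missing from shHNRNPU (blue) lie mainly in a stretch around 559 to 727 kb and in PLEKHH1.

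Region by region, 12 of the 21 shLUC regions of GPHN were also in shHNRNPU (57.1%, interval 34.0 to 78.2%), all 12 at identical coordinates. This leaves 9 shLUC regions lost and 2 shHNRNPU regions gained. Over the whole lists 70.8% of shLUC regions were kept, a value inside the GPHN interval. Of those 27868 kept regions, 27865 had identical coordinates, so this identity is not particular to GPHN. Among the 197 genes with at least 10 shLUC regions the median share kept was 70.0% (quartiles 62.5 and 80.0%), and 25 genes had a lower share than GPHN. In GPHN alone 3 of 7 were kept.

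The position of the lost regions is given by the spans between neighbouring shHNRNPU regions, which hold 0 knockdown regions by construction. The span with the most shLUC regions was picked after the values were seen. Between 67010381 and 67243393 on chromosome 14, a span of 233.0 kb, the knockdown list held 0 regions, while shLUC held 4 and hPSC also held 4. The regions at 67067394 to 67067793 and at 67166522 to 67166921 had the same coordinates in hPSC and shLUC and were absent from shHNRNPU. The first lies in no other gene, and the other lies in the long non-coding RNA gene LOC105370538 as well. The remaining lost regions of this span started at 67148422 and at 67234935, and neither overlapped an hPSC region. A further lost region of GPHN alone started at 66946399.

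In the shared stretch, 3 of the 5 lost regions lay in PLEKHH1 at 67536838, 67546427 and 67559991. PLEKHH1 codes for a pleckstrin homology domain protein and held 5 regions in hPSC, 5 in shLUC and 2 in shHNRNPU. The span between neighbouring knockdown regions there, 67533341 to 67572105, held 3 regions in shLUC and 3 in hPSC, none of which overlapped between those lists. Another lost region was that at the VTI1B start (67674394 to 67674793 in shLUC). The region at 67234935, named above, is the fifth, and it lies in LOC124903330.

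PALS1, TMEM229B and RDH12 kept their shLUC regions. PALS1, a polarity scaffold gene, held 3 regions in hPSC, 2 in shLUC and 2 in shHNRNPU. TMEM229B held 2, 3 and 3, and RDH12, a retinol dehydrogenase gene, held 1 in each list. Of 9 protein-coding genes with a promoter window inside the GPHN body, 4 had a region on it in hPSC, 3 in shLUC and 2 in shHNRNPU. PLEK2 and TMEM229B had it in both hairpin lists, and ATP6V1D and EIF2S1, adjoining genes of a proton pump subunit and a translation initiation factor, shared 1 region between their starts in hPSC only.

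The longest span of GPHN without a region in the hairpin lists was the same in both, from 66661252 to 66919816 (258.6 kb), and held 1 hPSC region. The region before it, at 66660852 to 66661251 in the first part of the gene, was the only one of GPHN with the same coordinates in all 3 lists. Within 500 kb on the lower side of GPHN there were 7 regions in hPSC, 7 in shLUC and 6 in shHNRNPU, and on the higher side 7, 8 and 8. RAD51B, a recombination gene that begins on the higher side, held 18, 18 and 17. The regions around GPHN thus differed by at most 1 between the hairpin lists on either side.

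In GPHN, as over the whole lists, most regions of each hairpin list overlapped no hPSC region. An hPSC region overlapped 6 of 21 shLUC regions (28.6%, interval 11.3 to 52.2%), 3 of them at identical coordinates, against 14.2% over the whole shLUC list. Of the 9 lost regions 3 overlapped an hPSC region, as did 3 of the 12 kept regions and 1 of the 2 gained. The gained region in hPSC lay at 67599971 to 67600370 at the edge of PIGH, a gene of GPI anchor synthesis, with identical coordinates. Cells with and without any hairpin were also listed separately, so the delivery of a hairpin and the calling of each list cannot be told apart here.

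The 6 receptor genes cover 1567 kb in all. They held 17 regions in hPSC (interval 9.90 to 27.2), 21 in shLUC (13.0 to 32.1) and 17 in shHNRNPU (9.90 to 27.2), where a region on 2 genes counts as 1. Their log2 ratio of shHNRNPU to shLUC was -0.30 (interval -1.32 to 0.69). The ratio of GPHN was the lower of the pair, but GPHN was chosen for this fall, so nothing is read from that order. Each value lay inside the interval of the other. Of the 21 shLUC regions 15 were kept (71.4%, interval 47.8 to 88.7%), with 6 lost and 2 gained. All 15 had identical coordinates, as nearly all kept regions of the whole lists did.

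**Figure D2:**
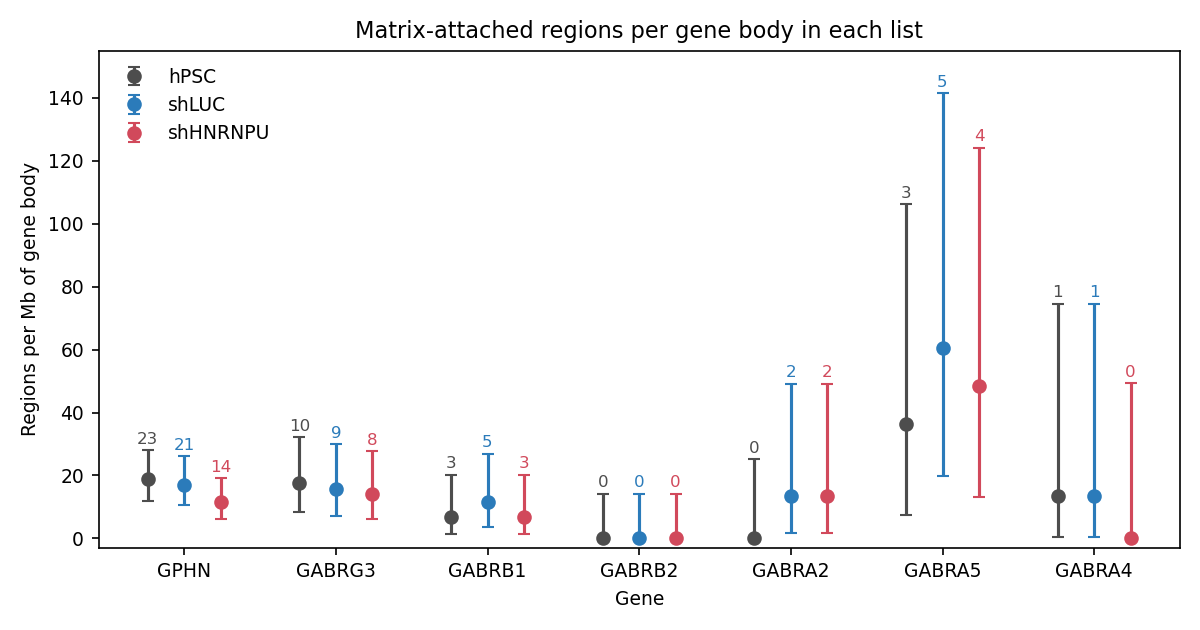
Points are regions per Mb of gene body for each gene and list, bars are exact 95% Poisson intervals of the count, and the number above each bar is the count of regions. The intervals of the 3 lists overlap in every gene, and GABRB2 is at 0 in all of them.

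GABRG3 codes for a gamma subunit and is the longest of the receptor genes (chr15:26971181-27541984, 570.8 kb). It held 10 regions in hPSC, 9 in shLUC and 8 in shHNRNPU. Of the shLUC regions 7 were in shHNRNPU, among them the region at 26971307 to 26971706, which began 76 bases after the promoter window. The regions at 27042477 and 27519533 were lost. The region at 27425451 was gained and overlapped an hPSC region that starts at 27425761. None of the 10 hPSC regions overlapped a shLUC region, and over the whole hPSC list 13.97% did.

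GABRA5 codes for an alpha subunit known from the hippocampus and lies next to GABRG3 (chr15:26866719-26949208, 82.5 kb). It held 3 regions in hPSC, 5 in shLUC and 4 in shHNRNPU, the highest densities among the 7 genes in each list (36.4, 60.6 and 48.5 per Mb). The centres of all 5 shLUC regions lay in the lower 35.2% of the gene body. The regions at 26883273, 26893815 and 26895550 were kept, and those at 26867645 and 26885044 were lost. The lost region at 26867645 lay 0.234 kb from an hPSC region at 26867011. The knockdown list gained the region 26929537 to 26929936, which was in hPSC at the same coordinates.

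The chromosome 4 genes held fewer. GABRB1, a beta subunit gene (chr4:46993647-47426447), held 3 regions in hPSC, 5 in shLUC and 3 in shHNRNPU. The regions at 47092413, 47131097 and 47378106 were in both hairpin lists, and the last of them overlapped an hPSC region at 47378246. The region at 47288223 was lost. The fifth shLUC region, 46993333 to 46993732, covers only 86 bases of the GABRB1 body and 249 bases of GABRA4, an alpha subunit gene on the other strand (chr4:46918900-46993581). The promoter table places the GABRB1 start at 47031567, beyond that region. GABRA4 held this 1 region in shLUC, an overlapping one in hPSC (46993230 to 46993629) and 0 in shHNRNPU, so this 1 lost region is counted in both genes.

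GABRA2, an alpha subunit gene of the same cluster (chr4:46243548-46390300), held 0 regions in hPSC and 2 in each hairpin list, at 46377723 and 46389680. The latter began 20 bases beyond 1 of its promoter windows. GABRB2, a beta subunit gene on chromosome 5 (chr5:161288436-161548404, 260.0 kb), held 0 regions in all lists, which allows a count of up to 3.69 in each. Its 500 kb on the lower side held 4 regions in hPSC, 5 in shLUC and 5 in shHNRNPU, and on the higher side 4, 2 and 2. The hPSC region nearest to its promoter window lay 1735 bases from it, outside the gene body.

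**Figure D3:**
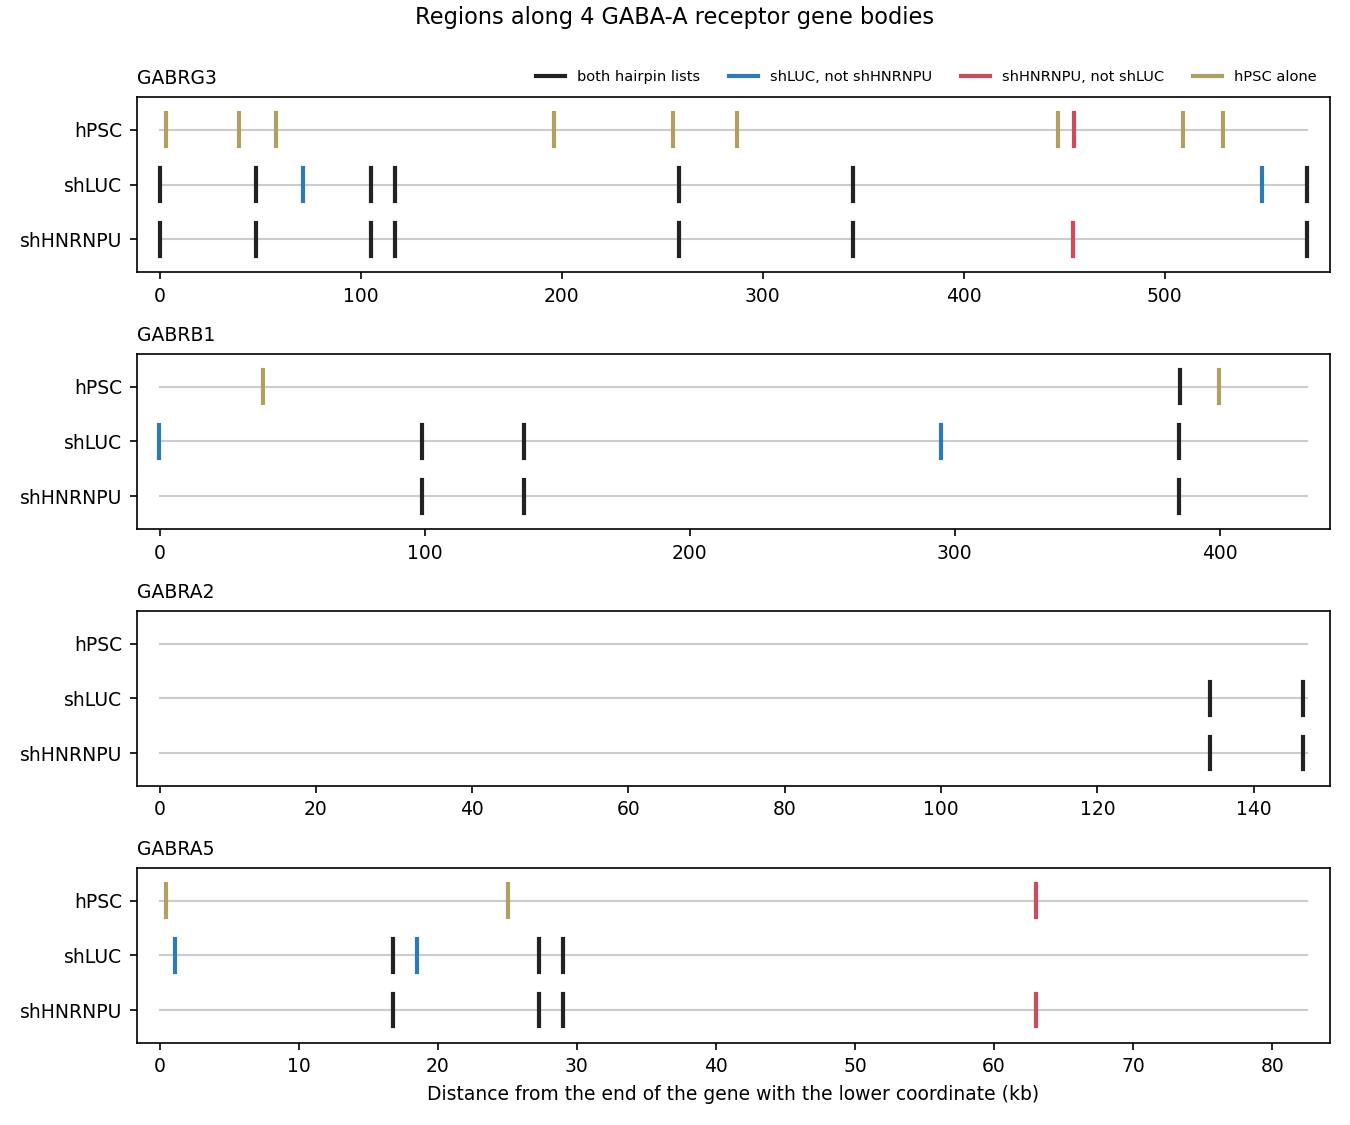
Each vertical line is 1 region along the gene body, by the distance of its centre in kb from the gene end with the lower coordinate, with a row per list and the colours of the GPHN map. The shares that follow are over all 6 receptor genes, with GABRA4 and GABRB2, which are not drawn. Of their shLUC regions 71.4% are in shHNRNPU (70.8% over the whole list). Of their hPSC regions 11.8% are in shLUC (13.97% over the whole list).

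By density in shLUC the order was GABRA5, GPHN, GABRG3, GABRA2, GABRA4, GABRB1 and GABRB2. Neighbours in this order had overlapping counting intervals. Such overlap does not by itself show that a pair is alike, and no pair was tested for a difference. With the whole table body, GPHN was the second in both control lists and the fourth in shHNRNPU, below GABRA5, GABRG3 and GABRA2. GPHN alone ranked lower in each list. In hPSC (11.7 per Mb) it lay below GABRA5, GABRG3 and GABRA4 (13.4). In shLUC (10.3) it lay below all receptor genes but GABRB2. In shHNRNPU (5.87) it lay below GABRA5, GABRG3, GABRA2 and GABRB1 (6.93). Between the hairpin lists, 5 of the 6 genes with a region held fewer in shHNRNPU, GABRA2 held equal numbers and none held more. GABRB1 and GABRA4 share the lost region at 46993333, which counts towards the fall of both genes. Of 11736 protein-coding genes with a region in either list, 30.3% held fewer and 22.5% more. Among 1058 genes with at least 5 shLUC regions 63.8% held fewer in shHNRNPU. That minimum favours genes that are high in shLUC, and it takes in GPHN, GABRB1, GABRA5 and GABRG3, of which GPHN was chosen for its fall, so nothing is read from their lower shHNRNPU counts. Between hPSC and shLUC, GPHN and GABRG3 held more in hPSC, GABRB1, GABRA2 and GABRA5 fewer, and GABRA4 the same, against 41.1% of genes with more and 36.1% with fewer. A region in at least 1 list was found in 6 of the 7 genes and in 73.0% of all protein-coding genes.

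**Figure D4:**
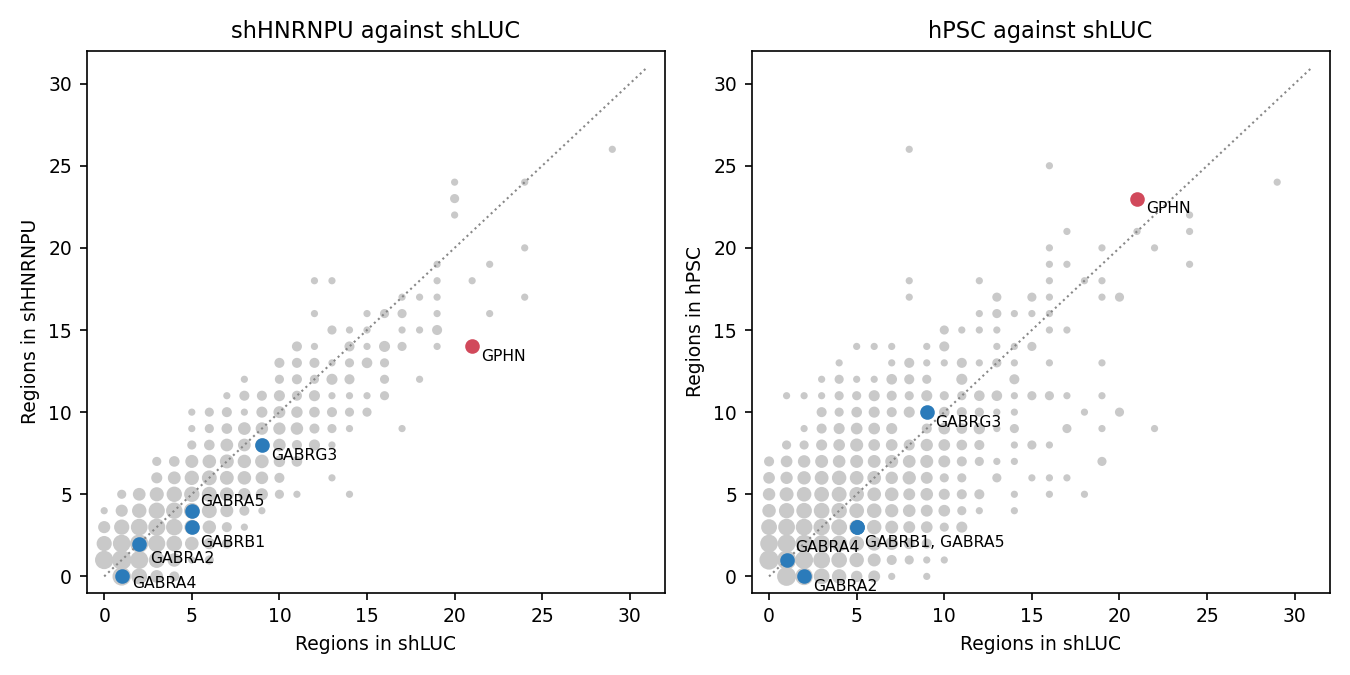
Grey circles are protein-coding genes by their number of regions in shLUC (x axis) and in shHNRNPU or hPSC (y axis), with circle area rising with the log number of genes at that point. The dotted line marks equal numbers, GPHN is red, receptor genes are blue, and genes at 0 on both axes, such as GABRB2, are not drawn. GPHN (21 and 14) lies below the line in the left panel and, with 23 hPSC regions, above it in the right panel.

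Of the receptor regions gained in shHNRNPU, both overlapped an hPSC region, against 1 of 6 lost and 1 of 15 kept. With GPHN included, 3 of 4 gained regions, 4 of 15 lost and 4 of 27 kept regions were in hPSC. Over the whole lists these shares were 29.5% of gained, 15.7% of lost and 13.6% of kept regions. The order was the same in the 7 genes, from few regions.

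The genes most like GPHN over the 3 lists, by the Euclidean distance between square roots of counts among genes with at least 10 shLUC regions, were CACNA1C, AUTS2 and CNTNAP2. CACNA1C, an L-type calcium channel gene, held 20 regions in hPSC, 19 in shLUC and 15 in shHNRNPU (distance 0.41). AUTS2 held 21, 21 and 18 (0.54), and CNTNAP2, a neurexin family gene, held 21, 17 and 16 (0.57).

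A list of 40 further genes of the inhibitory synapse held 60 regions in hPSC, 69 in shLUC and 58 in shHNRNPU. Of the 26 with a region in either hairpin list, 10 held fewer in shHNRNPU, 4 more and 12 equal numbers, beside 30.3% fewer and 22.5% more over all protein-coding genes with a region in either list. Of the other 13 GABA-A receptor genes 5 held no region in any list. GABRP, which codes for the pi subunit, held 2 regions in hPSC, 1 in shLUC and 1 in shHNRNPU. As a class these genes held 13, 12 and 13 regions, and 1 gene held fewer in shHNRNPU than in shLUC, 2 held more and 4 held equal numbers.

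Of the 4 genes for glycine receptors, the other receptors that gephyrin holds, 3 had a region in either hairpin list, and each of these held fewer in shHNRNPU, against 30.3% of all such protein-coding genes. GLRA3 went from 4 in shLUC to 2 in shHNRNPU with 2 in hPSC, GLRA1 from 2 to 1 with 0, and GLRB, the subunit that binds gephyrin directly, from 1 to 0 with 1. GLRA2 held 0 in all lists. These are differences of 1 or 2 regions per gene, from which nothing is read about the class.

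Among 13 genes listed as scaffold and anchoring partners, 10 had a region in either hairpin list. Of these, 4 held fewer regions in shHNRNPU, 1 more and 5 equal numbers, beside the same 30.3% and 22.5% over all genes. MAGI2, a large scaffold gene, held 20 regions in hPSC, 16 in shLUC and 12 in shHNRNPU. IGSF9B held 1, 5 and 4, and IQSEC3 held 3 in each list. DLC1 (chromosome 8, 521.3 kb) held 4, 6 and 5. It is not an established partner of gephyrin, but the class counts include it, as 1 of the 4 genes with fewer. Of the genes that make or carry GABA, GAD2 held 1, 6 and 4 and GAD1 held 0, 3 and 3. Of the molybdenum cofactor genes, MOCOS held 3, 3 and 2, MOCS2 held 1 in each list, and MOCS1 and MOCS3 held 0.

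**Figure D5:**
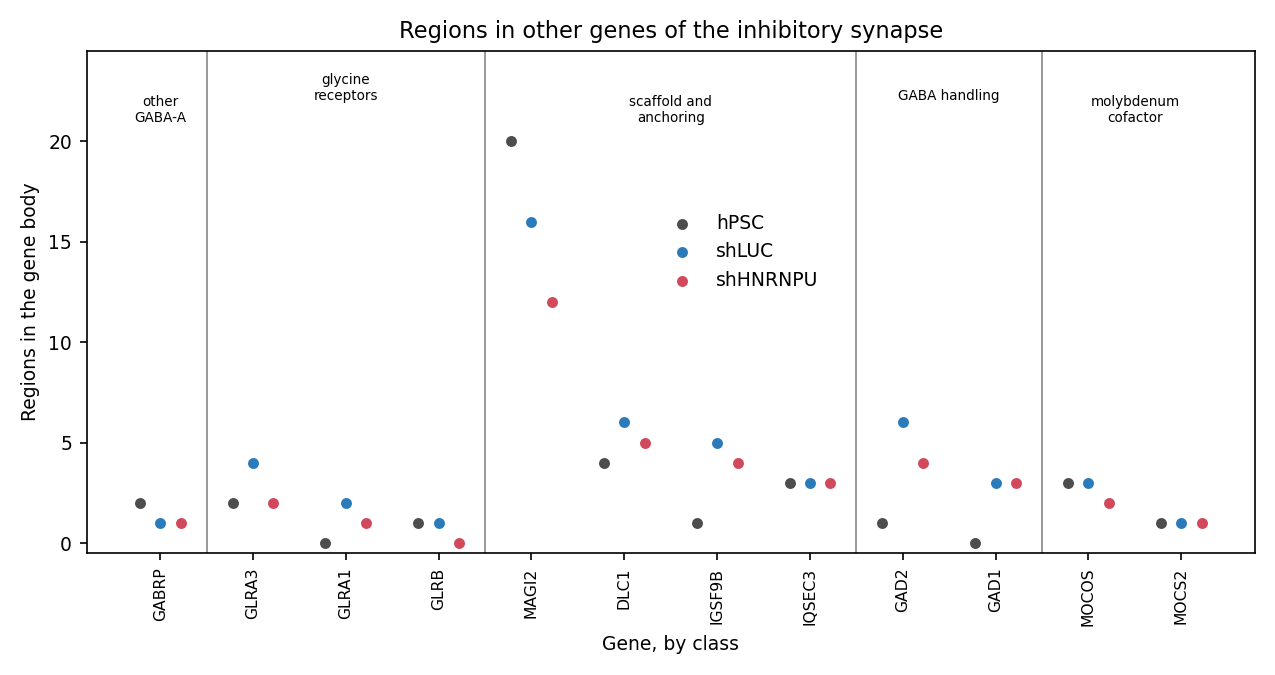
Points give the number of regions in the gene body (y axis) for the further genes named in the text that hold a region, grouped by class and coloured by list. MAGI2 stands highest, with 20, 16 and 12 regions, and the other genes shown hold 0 to 6.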

How the data were processed

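MAR-seq regions of 3 groups of H1 cells with 2 samples each were used. The authors deposited 1 BED list per group, with region positions, a fixed width of 400 bases and no height or count per sample. The submitters' processing notes name cutadapt, Bowtie2, SAMtools, MACS2, deepTools and the build hg38. How samples were joined, the threshold and the fixed width are not given in the sources used here, and the paper given with the series describes another experiment. Lists were matched to groups by name.

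Gene bodies came from the RefSeq gene table of GRCh38.p14, the same primary build as hg38, and starts from its promoter table, in which 3043 overlapping window pairs on opposite strands read as reverse complements (100.0%). Regions were counted by overlap of at least 1 base, and kept regions by the same overlap between lists. Intervals are exact at 95%. The genes named besides the 7 were those within 500 kb of GPHN, the 3 most like it and, by class, up to 4 synapse genes with the most regions, some of which are not reported here. CACNA2D3, TENM3, ADGRL3, MYT1L, PRDM16, CDH4, SDK1 and TBCD are named for their place in the order that chose GPHN, and GLRA2, MOCS1 and MOCS3 were named after their values were seen. Members and lists were chosen with earlier results of these data known. Counting was tested on simulated regions. Alternatives were region centres, bodies extended by 5 kb, merging below 1 kb, shares of the list, a 50% overlap and a distance of 1 kb. Scipy 1.17.1, pandas 2.3.3 and numpy 2.4.6 were run under Python 3.11.15, and figures were drawn by matplotlib 3.10.9.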

Additional observations from a re-analysis of the deposited data

How the results depend on the processing

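The 10 summary values for GPHN, the receptor genes and all genes were recomputed under 42 alternatives, and all 42 stayed within the counting interval of the value, or within a factor of 1.5 for numbers of genes. The alternative chosen after seeing the data limited GPHN to the stretch before the first other protein-coding gene. It gave a log2 ratio of shHNRNPU to shLUC of -0.81 (interval -3.03 to 1.17), with 4 and 7 regions, and a share kept of 42.9% (interval 9.90 to 81.6%). Scaling by list length moved the log2 ratio of shHNRNPU to shLUC from -0.58 to -0.47 for GPHN and from -0.30 to -0.19 for the receptor genes. These intervals are wide, so agreement within them says little about stability. Genes with fewer regions in shHNRNPU than in shLUC numbered 3408 by region centre and 4372 with extended bodies, against 3556. No paired analysis was possible because the lists carry no values per sample, and leaving out a replicate could not be run for the same reason. Read depth is unknown, and a deeper library or looser threshold also gives more regions.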
